A study of Homo sapiens with 4 samples.

Results

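The genes described here encode PGC-1α and the regulators that act with it on mitochondrial biogenesis. They are the coactivators PPARGC1A, PPARGC1B and PPRC1, the transcription factor genes NRF1, GABPA and GABPB1, and TFAM, TFB1M, TFB2M and POLRMT, which encode the proteins that transcribe mitochondrial DNA. They were chosen by gene symbol, with no threshold on their values, and all 10 were found among the 22637 genes listed. RNA-seq was performed on 4 human prostate adenocarcinoma cell lines, with 1 library for each. LNCaP is a castration-sensitive line, C4-2B descends from LNCaP and is castration-resistant, and LN-OlapR and 2B-OlapR are olaparib-resistant lines selected from LNCaP and C4-2B. Olaparib inhibits poly(ADP-ribose) polymerase, and both resistant lines arose from parental cells kept in rising doses of it. All libraries are labelled untreated, and the deposited description states that cells grew without the selection agent over the 48 hours between plating and RNA isolation, a time that is longer in the methods of the study. Each resistance background is represented by a single line, so the comparisons below describe these cultures.

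PGC-1α, encoded by PPARGC1A, binds transcription factors rather than DNA and raises the expression of genes for respiration and fatty acid oxidation, with the estrogen-related receptors among its main partners. The nuclear respiratory factors, NRF1 and the GABPA-GABPB1 complex (also called NRF-2), bind promoters of nuclear genes for mitochondrial proteins, TFAM, TFB1M and TFB2M included. Inside the organelle, POLRMT transcribes both strands of the mitochondrial genome, TFAM bends and packages that DNA, TFB2M opens the promoters, and TFB1M methylates the RNA of the small mitochondrial ribosomal subunit. In prostate cancer cells PGC-1α is known as a regulator of oxidative metabolism, and PGC-1β and PRC, encoded by PPARGC1B and PPRC1, share its activating and nuclear receptor-binding parts.

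Promoter stretches are shown because NRF1 and GABP, whose binding letters were searched, are themselves among the genes measured. They are given for members with such letters and for TFAM, the most variable of the mitochondrial transcription genes. RefSeq promoter windows of 300 bases on GRCh38.p14, from 250 bases before to 50 bases after a start site, were matched by symbol for 9 of the 10 genes, with 2 windows for PPARGC1A. NRF1 was not matched. Both strands were searched, and overlapping matches are shown as a single run. The NRF1 letters, GCGCATGC, GCATGCGC or CGCATGCG, were found in the windows of 3 genes, against 3.16% of 35116 windows of the same length. These 3 windows had 65.0% to 66.7% GC, against a median of 58.7% over all windows, and windows of like GC were not compared. The NRF1 letters are in capitals below, with each run written 5′ to 3′ on the strand of the gene.
TFB2M, chr1:246566262-246566287, minus strand: ctccgctgttCGCATGCGCaggctct
TFB1M, chr6:155314597-155314626, minus strand: gcaggacttaGCGCATGCGCtctcagcacg
POLRMT, chr19:633652-633679, minus strand: gcgtccaccgGCGCATGCcttcgcgcct
POLRMT, chr19:633542-633571, minus strand: ggcggcgcggGCGCATGCGCaggcgcgggc

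The GABP letters, CCGGAAG, were also found in 3 genes, against 10.3% of all windows, and in each of them on the strand opposite to the gene, so that the capitals below read as the reverse complement. TFB1M and POLRMT held both kinds of letters.
TFB1M, chr6:155314553-155314579, minus strand: gcggtcatcgCTTCCGGtgggataggt
POLRMT, chr19:633614-633640, minus strand: tgggagtctaCTTCCGGctggggtttc
GABPA, chr21:25734896-25734922, plus strand: ctccgctctaCTTCCGGccctggctcc

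In the TFAM window neither kind of letters was found. That window runs from 58385160 to 58385459, inside the gene as positioned below, which starts at 58385022. Bases before this start were therefore not searched, and the absence holds for the window only. The windows of PPARGC1B and GABPA and a window of PPARGC1A also lie inside the gene positions given below. The TFAM window held 5 matches of the SP1 letters, GGGCGG, and 3 of these stand in a row, shown in capitals on the strand of the gene.
TFAM, chr10:58385355-58385384, plus strand: gccaattCCGCCCCGCCCCGCCCccatcta

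The SP1 letters were found in 6 of the genes and in 45.0% of all windows, and the estrogen-related receptor letters, AAGGTCA, in 0 of the genes and 3.92% of all windows. A match gives only the letters in these windows, not binding.

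Counts summed to between 19950537 and 26394267 per library. Levels are given as normalized CPM, the counts of a gene scaled to the TMM-adjusted library total, each with a 95% Wilson interval in parentheses, and differences as log2 ratios with a 95% interval from the counts. These intervals cover counting error only, and with 1 library per line a difference could not be checked against replicates and p-values were not computed. As a library pools the RNA of a whole culture, fewer cells expressing a gene and less of its RNA per cell cannot be told apart. All 10 prostate luminal markers examined were detected in every library, with a summed level between 4116 and 7615 normalized CPM. KLK3, the gene for prostate-specific antigen, set the LNCaP library apart, with 53.1 normalized CPM there and 1870 to 2685 in the other lines. The 2B pair below is 2B-OlapR against C4-2B, and the LN pair is LN-OlapR against LNCaP. The comparison of C4-2B with LNCaP shares a library with each pair.

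PPARGC1A had the lowest level per kilobase of the regulators in every library and the widest range between libraries, 4.32-fold. Listed as ENSG00000109819.9, it lies on chromosome 4 between 23755041 and 23904089, on the minus strand in GENCODE 29 on GRCh38. It had 33 counts in LNCaP against 28 in LN-OlapR and 64 in C4-2B against 15 in 2B-OlapR. The levels were 1.23 normalized CPM (0.874 to 1.72) in LNCaP against 1.20 (0.831 to 1.73) in LN-OlapR and 3.13 (2.45 to 3.99) in C4-2B against 0.724 (0.439 to 1.19) in 2B-OlapR. C4-2B stood above the other 3 libraries with no overlap of the intervals, whereas those 3 overlapped each other. In the 2B pair the log2 ratio was -2.08 (-2.87 to -1.28), or 4.21-fold lower in 2B-OlapR, and 1.28% of the 15527 genes analyzed had a lower ratio. The LN pair gave -0.03 (-0.75 to 0.69), so no difference could be detected at these counts, and the interval still holds differences of more than 1.5-fold in either direction. C4-2B exceeded LNCaP by 1.34 (0.74 to 1.94) on the log2 scale, or 2.53-fold. The log2 ratio of the 2B pair was lower than that of the LN pair by 2.05, a difference of -2.05 (-3.12 to -0.97). Both of the larger differences rest on the C4-2B library. The low counts set the width of these intervals, and all 10 genes nonetheless passed the filter of a mean of 1 normalized CPM in each comparison.

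Genes that mark other cell types were examined beside PPARGC1A. COL1A1, a fibroblast gene, was at 16.1 normalized CPM in C4-2B against 7.14 in 2B-OlapR, with 15.2 in LNCaP and 8.23 in LN-OlapR. VWF, an endothelial gene, was at 12.2 and 2.61 in the 2B pair, with 7.29 in LNCaP and 4.37 in LN-OlapR. Both had their highest value in C4-2B and their lowest in 2B-OlapR, as PPARGC1A did. For COL1A1 the intervals of C4-2B (14.4 to 17.9) and LNCaP (13.8 to 16.7) overlapped. Those of 2B-OlapR (6.08 to 8.39) and LN-OlapR (7.15 to 9.48) overlapped too, so neither rank of COL1A1 is separate. Of 4 fibroblast markers only COL1A1 had values, of 3 endothelial markers only VWF and of 3 leukocyte markers only CD68. CD68 was at 0.409 normalized CPM in LNCaP against 5.14 in LN-OlapR and 4.20 in C4-2B against 2.17 in 2B-OlapR. Unlike PPARGC1A, it was highest in LN-OlapR and lowest in LNCaP. The part of these markers in the PPARGC1A result was not tested.

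PPARGC1B, which encodes PGC-1β, stayed within a narrow range. It is listed as ENSG00000155846.17 and lies on chromosome 5 between 149730298 and 149855022, on the plus strand. The levels were 32.5 normalized CPM (30.4 to 34.7) in LNCaP against 28.5 (26.4 to 30.8) in LN-OlapR and 37.6 (35.1 to 40.4) in C4-2B against 37.0 (34.5 to 39.7) in 2B-OlapR. From C4-2B, the highest, through 2B-OlapR and LNCaP to LN-OlapR, each interval overlapped with the next. Its log2 ratio was -0.02 (-0.17 to 0.12) in the 2B pair against -0.19 (-0.33 to -0.04) in the LN pair, and 0.21 (0.07 to 0.35) for C4-2B against LNCaP.

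PPRC1 encodes PRC, the coactivator of this family that responds to growth signals. It is listed as ENSG00000148840.11 and lies on chromosome 10 between 102132994 and 102150331, on the plus strand. With 99.5 normalized CPM (95.8 to 103) in LNCaP against 107.0 (103 to 111) in LN-OlapR and 108.1 (104 to 113) in C4-2B against 133.7 (129 to 139) in 2B-OlapR, it was highest in 2B-OlapR, where its interval was separate from all others. The log2 ratio was 0.31 (0.23 to 0.39) in the 2B pair against 0.10 (0.03 to 0.18) in the LN pair.

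Set against each other per kilobase of the longest coding transcript, the 3 coactivator genes kept one order, PPRC1 above PPARGC1B above PPARGC1A, in all 4 libraries. The level per kilobase of PPRC1 was 18.7, 20.1, 20.3 and 25.1 CPM in LNCaP, LN-OlapR, C4-2B and 2B-OlapR, and that of PPARGC1A was 0.194, 0.190, 0.495 and 0.115. PPARGC1A thus made up 0.886% of the summed level per kilobase of the family in LNCaP and 0.827% in LN-OlapR, but 2.03% in C4-2B against 0.399% in 2B-OlapR. PPARGC1B exceeded PPARGC1A per kilobase by 7.14-fold (5.54 to 9.21) in C4-2B and by 29.6-fold (17.9 to 48.9) in 2B-OlapR, intervals that do not overlap. In LNCaP and LN-OlapR the ratios were 15.6 (11.1 to 22.0) and 14.0 (9.60 to 20.3), which overlap.

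**Figure D1:**
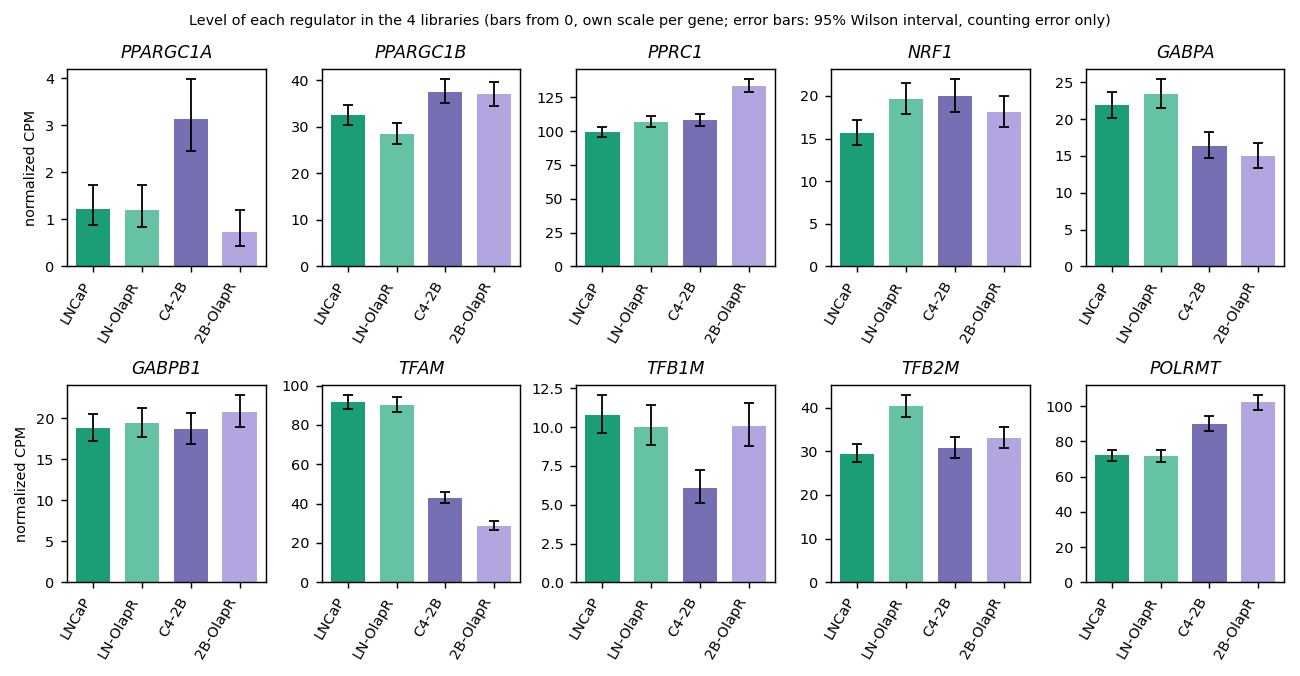
Level of each of the 10 regulators in normalized CPM (vertical axes, each from 0 with its own scale) in LNCaP, LN-OlapR, C4-2B and 2B-OlapR (bars), with 95% Wilson intervals for counting error as error bars. PPARGC1A is highest in C4-2B at 3.13 and lowest in 2B-OlapR at 0.724, TFAM lies near 90 in both LNCaP-background lines and at 42.9 and 28.7 in the other lines, and TFB1M is lowest in C4-2B at 6.06.

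Of the nuclear respiratory factor genes, GABPA had the widest range between libraries, 1.56-fold, and GABPB1 the narrowest, 1.12-fold. NRF1 (ENSG00000106459.15, chromosome 7 between 129611714 and 129757082, plus strand) encodes the factor that binds the GCGCATGC letters above. It was at 15.6 normalized CPM (14.2 to 17.2) in LNCaP against 19.6 (17.9 to 21.5) in LN-OlapR and 19.99 (18.1 to 22.0) in C4-2B against 18.1 (16.4 to 20.02) in 2B-OlapR. LNCaP was lowest, and its interval was separate from those of LN-OlapR and C4-2B. The log2 ratio was 0.33 (0.14 to 0.52) in the LN pair and -0.14 (-0.35 to 0.06) in the 2B pair, a difference between the pairs of -0.47 (-0.75 to -0.19).

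GABPA encodes the DNA-binding subunit of GABP, which recognizes the CCGGAAG letters. Listed as ENSG00000154727.11, it lies on chromosome 21 between 25734570 and 25772460, on the plus strand. It had 588 counts in LNCaP against 547 in LN-OlapR and 335 in C4-2B against 311 in 2B-OlapR, or 21.9 (20.2 to 23.7), 23.5 (21.6 to 25.5), 16.4 (14.7 to 18.2) and 15.0 (13.4 to 16.8) normalized CPM. The libraries fell into the 2 backgrounds, with both LNCaP-background lines above both C4-2B-background lines and no overlap between them. C4-2B against LNCaP gave a log2 ratio of -0.42 (-0.61 to -0.22), while both resistant pairs had intervals that include 0, with -0.13 (-0.35 to 0.10) in the 2B pair against 0.10 (-0.07 to 0.27) in the LN pair. GABPA shares 1104 bases with ATP5PF on the opposite strand, for which C4-2B against LNCaP gave -0.20, and a pseudogene, GABPAP, held 157, 120, 113 and 79 counts in the same order of libraries. Reads of these genes can be shared, so that the GABPA values are uncertain to that extent.

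GABPB1 encodes the subunit of GABP that carries the activation domain. It is listed as ENSG00000104064.18 and lies on chromosome 15 between 50275392 and 50355408, on the minus strand. It was the most even of the regulators, with 18.8 normalized CPM (17.2 to 20.5) in LNCaP against 19.4 (17.7 to 21.2) in LN-OlapR and 18.6 (16.8 to 20.6) in C4-2B against 20.8 (18.9 to 22.9) in 2B-OlapR, a range of 1.12-fold. All 3 of its log2 ratios had intervals that include 0. The antisense gene GABPB1-AS1, which shares 450 bases with it, had 1792, 1294, 746 and 749 counts in LNCaP, LN-OlapR, C4-2B and 2B-OlapR. GABPB1-AS1 thus did not follow the pattern of GABPB1. GABPB1-IT1, on the same strand as GABPB1, shares 5926 bases with it and had 661, 468, 396 and 354 counts in that order. Reads of GABPB1-IT1 and GABPB1 can be shared, so the GABPB1 values are uncertain to that extent. Per kilobase, the ratio of GABPA to GABPB1 was 1.10 (0.972 to 1.23) in LNCaP, an interval that includes equal levels, and 1.14 (1.005 to 1.29) in LN-OlapR. The same ratio was 0.827 (0.714 to 0.958) in C4-2B against 0.679 (0.587 to 0.786) in 2B-OlapR, so it was lower in both C4-2B-background lines. Which subunit has more mRNA within a library depends on the transcript lengths taken.

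**Figure D2:**
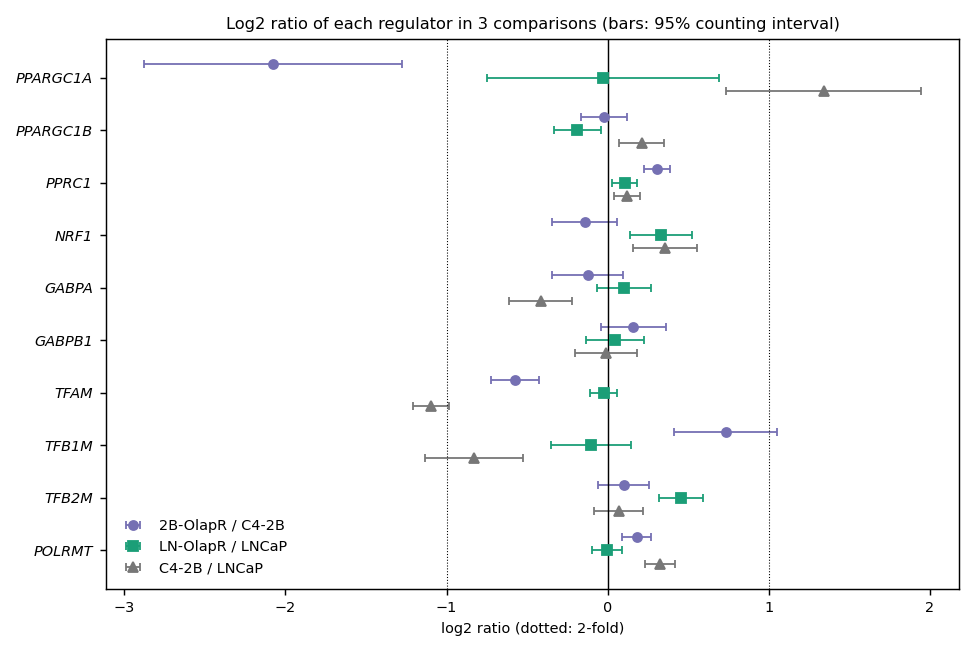
Log2 ratio (horizontal axis) of each regulator (rows) in 2B-OlapR against C4-2B (circles), LN-OlapR against LNCaP (squares) and C4-2B against LNCaP (triangles), with bars for the 95% counting interval and dotted lines at 2-fold. PPARGC1A at -2.08 in the 2B pair and 1.34 in C4-2B against LNCaP, and TFAM at -1.10 in C4-2B against LNCaP, are the values past a dotted line, and in the LN pair no regulator reaches one.

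Among the genes for transcription inside mitochondria, TFAM varied most. TFAM (ENSG00000108064.11) lies on chromosome 10 between 58385022 and 58399221, on the plus strand. It had 2466 counts in LNCaP against 2102 in LN-OlapR and 877 in C4-2B against 595 in 2B-OlapR, or 91.7 (88.2 to 95.4), 90.1 (86.3 to 94.1), 42.9 (40.1 to 45.8) and 28.7 (26.5 to 31.1) normalized CPM. Both LNCaP-background lines lay well above both C4-2B-background lines, and of the neighbours in this order LNCaP and LN-OlapR alone overlapped. C4-2B was 2.14-fold lower than LNCaP, with a log2 ratio of -1.10 (-1.21 to -0.99), and 5.98% of the 15580 genes of that comparison had a lower ratio. 2B-OlapR was lower again than C4-2B, by 1.49-fold, with -0.58 (-0.73 to -0.43), a ratio below which lay 13.7% of the genes. In the LN pair the log2 ratio was -0.03 (-0.11 to 0.06), and the difference between the pairs was -0.55 (-0.72 to -0.38).

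POLRMT, the mitochondrial RNA polymerase, had another order. It is listed as ENSG00000099821.14 and lies on chromosome 19 between 617224 and 633604, on the minus strand. Its levels were 71.9 normalized CPM (68.8 to 75.2) in LNCaP against 71.7 (68.3 to 75.2) in LN-OlapR and 90.0 (86.0 to 94.2) in C4-2B against 102.0 (97.8 to 106) in 2B-OlapR. The intervals of both LNCaP-background lines overlapped almost fully, and 2B-OlapR was highest. The log2 ratio was 0.18 (0.09 to 0.27) in the 2B pair, -0.01 (-0.10 to 0.09) in the LN pair and 0.32 (0.23 to 0.42) for C4-2B against LNCaP.

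The levels of TFAM and POLRMT therefore parted within a library. Per kilobase, TFAM stood at 0.903 (0.851 to 0.959) of POLRMT in LNCaP and 0.890 (0.835 to 0.950) in LN-OlapR. It stood at 0.337 (0.311 to 0.366) in C4-2B against 0.199 (0.182 to 0.218) in 2B-OlapR. Because both genes of a ratio come from the same library, the scaling between libraries does not enter it. The POLRMT counts could hold reads of the pseudogene POLRMTP1, which had 443, 346, 368 and 355 counts in LNCaP, LN-OlapR, C4-2B and 2B-OlapR.

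TFB1M, the methyltransferase of mitochondrial ribosomal RNA, was lowest in C4-2B. It is listed as ENSG00000029639.11 and lies on chromosome 6 between 155257509 and 155314493, on the minus strand. It had 290 counts in LNCaP against 234 in LN-OlapR and 124 in C4-2B against 209 in 2B-OlapR, or 10.8 (9.62 to 12.1), 10.03 (8.83 to 11.4), 6.06 (5.08 to 7.22) and 10.1 (8.81 to 11.5) normalized CPM. The C4-2B interval was separate from the other 3, which overlapped each other, so that the differences below rest on the C4-2B library. The log2 ratio was 0.73 (0.41 to 1.05) in the 2B pair, or 1.66-fold higher in 2B-OlapR, and 92.6% of the genes analyzed had a lower ratio. It was -0.10 (-0.35 to 0.14) in the LN pair and -0.83 (-1.13 to -0.53) for C4-2B against LNCaP. TIAM2 shares 215 bases at the end of TFB1M on the opposite strand and had 30, 32, 19 and 35 counts in the 4 libraries. Like TFB1M it was lowest in C4-2B, at 0.929 normalized CPM, but at so few counts this rank is uncertain. CLDN20, also on the opposite strand, shares 12536 bases with TFB1M and had at most 10 counts in a library. The part of TIAM2 and CLDN20 in the TFB1M values was not tested.

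TFB2M, the promoter-opening factor, was highest in LN-OlapR. Listed as ENSG00000162851.8, it lies on chromosome 1 between 246540560 and 246566324, on the minus strand. It was at 29.4 normalized CPM (27.4 to 31.5) in LNCaP against 40.3 (37.8 to 43.0) in LN-OlapR and 30.8 (28.5 to 33.3) in C4-2B against 33.0 (30.6 to 35.6) in 2B-OlapR. LN-OlapR alone was separate from the rest. The log2 ratio of 0.45 (0.32 to 0.59) in the LN pair, or 1.37-fold, was the largest of any regulator in that pair, with 85.3% of the 15373 genes lower, and in the 2B pair the ratio was 0.10 (-0.06 to 0.25). Per kilobase, TFB2M was above TFB1M in every library, by 2.10-fold (1.84 to 2.40) in LNCaP and 3.09-fold (2.68 to 3.57) in LN-OlapR, and by 3.91-fold (3.23 to 4.74) in C4-2B against 2.52-fold (2.16 to 2.94) in 2B-OlapR. Of the 3 genes with the NRF1 letters in their windows, TFB2M was highest in LN-OlapR and POLRMT in 2B-OlapR. The TFB1M intervals overlapped in LNCaP, LN-OlapR and 2B-OlapR, and C4-2B was lowest. Whether the letters bear on these levels was not tested.

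**Figure D3:**
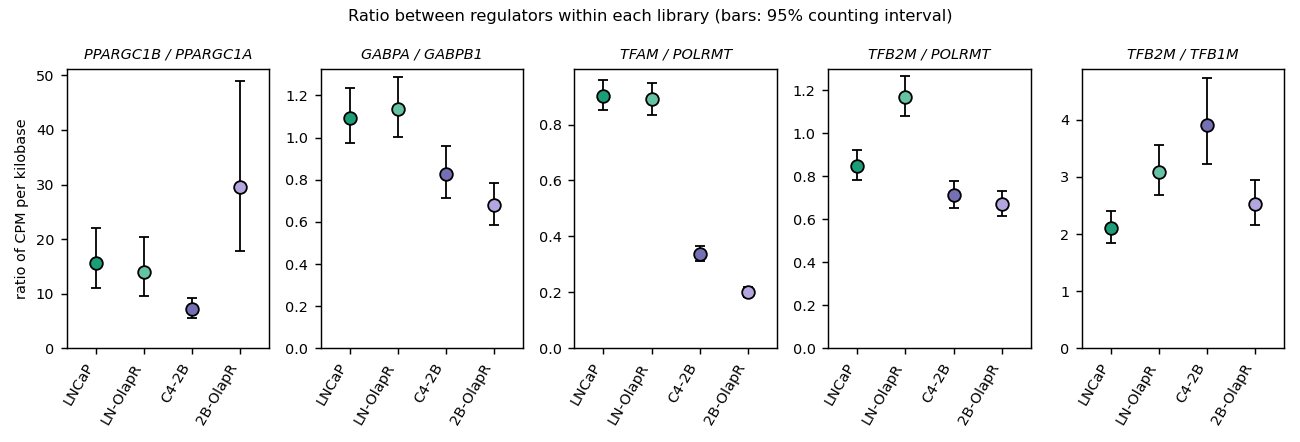
Ratio of the CPM per kilobase of pairs of regulators (vertical axes from 0) in each of the 4 libraries (points), with 95% counting intervals as bars. PPARGC1B over PPARGC1A runs from 7.14 in C4-2B to 29.6 in 2B-OlapR, and TFAM over POLRMT is 0.903 and 0.890 in the LNCaP-background lines against 0.337 and 0.199 in the C4-2B-background lines.

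As a group, the 10 regulators were about evenly split between higher and lower. In the 2B pair 5 were higher and 5 lower in 2B-OlapR, where 50.0% of all genes were higher, with a median log2 ratio of 0.04 against 0.00 for all genes. One gene, PPARGC1A, differed by at least 2-fold, against 10.1% of genes, and 5 had an interval without 0, against 62.3%. In the LN pair 5 were higher and 5 lower in LN-OlapR, where 49.6% of all genes were higher, with a median of 0.02. Here 0 regulators differed by 2-fold, against 9.46% of genes, and 4 had an interval without 0, against 63.0%. Between C4-2B and LNCaP, 6 regulators were higher in C4-2B, where 48.6% of genes were higher. PPARGC1A and TFAM differed by at least 2-fold, in opposite directions, against 15.2% of genes, and 8 had an interval without 0, against 70.4%. In both resistant pairs 6 of the 10 had the same direction, against 57.6% of the 14602 genes analyzed in both. Opposite directions with both intervals without 0 were seen in 0 of the 10, against 16.3% of these genes. Under other scalings the sign turned for ratios close to 0, which were PPARGC1B in the 2B pair, GABPB1 and POLRMT in the LN pair and GABPB1 for C4-2B against LNCaP. Scaling by total counts turned the sign of the group median in both resistant pairs, to -0.00462 and -0.0643. With so few genes these counts are no result about the group.

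The partners of PGC-1 were examined next. Of the 12 nuclear receptor genes listed, 9 passed the filter. Of these, 6 were higher in 2B-OlapR and 3 in LN-OlapR than in their parental lines, against 50.0% and 49.6% of all genes. With so few genes these counts are no result about the list. The medians were 0.31 and -0.13. ESRRA, the estrogen-related receptor through which PGC-1α acts on respiratory genes, was at 75.9 normalized CPM in LNCaP against 101.3 in LN-OlapR and 143.5 in C4-2B against 187.0 in 2B-OlapR. It was higher in each resistant line than in its parent, by 0.38 (0.31 to 0.45) and 0.42 (0.33 to 0.50) on the log2 scale. ESRRG, which encodes a related receptor, had 21, 5, 13 and 2 counts and did not pass the filter, and its level in 2B-OlapR was 0.0965 normalized CPM (0.0265 to 0.352). PPARG, a regulator of lipid storage, had 214 counts in LNCaP against 31 in LN-OlapR and 45 in C4-2B against 105 in 2B-OlapR. Its log2 ratio was 1.20 (0.69 to 1.70) in the 2B pair against -2.56 (-3.10 to -2.02) in the LN pair. THRB, a thyroid hormone receptor gene, was the lowest partner of the 2B pair, with -0.81.

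Regulators that act on PGC-1α itself were balanced, with 15 of 29 higher in 2B-OlapR and 14 of 28 in LN-OlapR. Over all genes 50.0% and 49.6% were higher, and 10.1% and 9.46% were at least 2-fold apart in the 2B pair and the LN pair. The medians of the list were 0.02 and 0.00. At least 2-fold apart were LPIN1, PERM1 and PRKAA2 in the 2B pair and PRKAA2 in the LN pair, besides MEF2C, which passed the filter of the 2B pair only through its level in 2B-OlapR. PRKAA2 encodes a catalytic subunit of AMP-activated kinase, which phosphorylates PGC-1α. It had 87 counts in LNCaP against 341 in LN-OlapR and 969 in C4-2B against 210 in 2B-OlapR, and its log2 ratio was -2.22 (-2.44 to -2.01) in the 2B pair against 2.17 (1.83 to 2.51) in the LN pair. It was highest in C4-2B, the library in which PPARGC1A was highest. NRIP1, a corepressor of nuclear receptors that opposes PGC-1α, was at 91.7 normalized CPM in LNCaP against 52.2 in LN-OlapR and 19.9 in C4-2B against 9.99 in 2B-OlapR. It was lower in both resistant lines than in their parents, by log2 ratios of -0.99 in the 2B pair against -0.81 in the LN pair. LPIN1, which amplifies PGC-1α activity, was at 89.0 normalized CPM in LNCaP against 97.4 in LN-OlapR and 43.9 in C4-2B against 108.1 in 2B-OlapR. C4-2B was the low library, and the log2 ratio of 1.30 (1.19 to 1.41) in the 2B pair rests on it, as does that of -1.02 (-1.13 to -0.91) for C4-2B against LNCaP. The LN pair gave 0.13 (0.05 to 0.21). PERM1, a muscle regulator of the same pathway, had 28 counts in C4-2B against 59 in 2B-OlapR, with 1.04 (0.40 to 1.69). MEF2C, which binds the PPARGC1A promoter in muscle, had 1, 9, 2 and 46 counts in LNCaP, LN-OlapR, C4-2B and 2B-OlapR. Its level was 0.0372 normalized CPM (0.00657 to 0.211) in LNCaP, and 0.0977 (0.0268 to 0.356) in C4-2B against 2.22 (1.66 to 2.96) in 2B-OlapR. From the 2 counts in C4-2B its log2 ratio in the 2B pair, 4.20, had an interval of 2.36 to 6.03.

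Of the other nuclear respiratory factor subunits and coactivators, 3 of 7 were higher in 2B-OlapR and 5 of 7 in LN-OlapR. Over all genes the shares were 50.0% and 49.6%. No gene of the list reached 2-fold, against 10.1% and 9.46% of all genes. GABPB2, the alternative activating subunit of GABP, was at 27.6 normalized CPM in LNCaP against 35.2 in LN-OlapR and 28.4 in C4-2B against 34.7 in 2B-OlapR. It was thus higher in both resistant lines, with log2 ratios of 0.29 (0.13 to 0.45) in the 2B pair against 0.35 (0.21 to 0.49) in the LN pair, which GABPB1 was not beyond its counting error. MYC and MAX, partners in a dimer that also activates mitochondrial genes, were at -0.12 and -0.29 in the 2B pair and at 0.41 and 0.15 in the LN pair. NFE2L1, a stress-responsive transcription factor gene, gave 0.08 and -0.14.

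Genes for mitochondrial DNA replication and maintenance were nearly balanced, with 11 of 24 higher in 2B-OlapR and 14 of 24 in LN-OlapR. Over all genes 50.0% and 49.6% were higher. No gene of the list reached 2-fold, against 10.1% and 9.46% of all genes. POLG, the catalytic subunit of the mitochondrial DNA polymerase, was at 61.8 normalized CPM in LNCaP against 52.7 in LN-OlapR and 91.7 in C4-2B against 103.0 in 2B-OlapR. As for POLRMT, 2B-OlapR was highest and C4-2B next, but LNCaP and LN-OlapR overlapped for POLRMT. The log2 ratio of POLG was 0.17 (0.08 to 0.26) in the 2B pair against -0.23 (-0.34 to -0.13) in the LN pair. RRM2B, a subunit of ribonucleotide reductase, was the highest of the list in the 2B pair with 0.70, and SLC25A36, a nucleotide carrier, the lowest with -0.83. In the LN pair TOP1MT, the mitochondrial topoisomerase, was highest with 0.68 and TK2, a mitochondrial nucleoside kinase, lowest with -0.51.

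In the list for mitochondrial transcription and RNA processing, 15 of 36 genes were higher in 2B-OlapR and 16 of 36 in LN-OlapR. Over all genes 50.0% and 49.6% were higher, and 10.1% and 9.46% were at least 2-fold apart. TEFM, the elongation factor of POLRMT, was at 12.6 normalized CPM in LNCaP against 9.99 in LN-OlapR and 13.3 in C4-2B against 13.3 in 2B-OlapR. REXO2, which degrades short mitochondrial RNA, was the only gene of the list at least 2-fold apart, with 33.9 normalized CPM in LNCaP against 41.7 in LN-OlapR, 44.0 in C4-2B against 94.9 in 2B-OlapR and, in the 2B pair, a log2 ratio of 1.11 (0.99 to 1.22). MTERF2, a factor that binds mitochondrial DNA, was lowest in the 2B pair with -0.54. FASTK, an RNA-binding protein gene, was highest in the LN pair with 0.70, and MRM2, a ribosomal RNA methyltransferase, lowest with -0.46.

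Genes known as targets were compared last. Of 24 textbook targets of the nuclear respiratory factors, 17 were higher in 2B-OlapR, where 50.0% of all genes were, and 18 in LN-OlapR, where 49.6% were. The medians were 0.07 and 0.17, and no gene reached 2-fold. Between C4-2B and LNCaP, 17 of the 24 were higher in C4-2B, with a median of 0.15, where 48.6% of all genes were higher. As this comparison shares LNCaP with the LN pair and C4-2B with the 2B pair, these counts are not separate observations. The highest and lowest in the 2B pair were UQCRQ, a complex III subunit, with 0.65, and ATP5F1B, the catalytic subunit of ATP synthase, with -0.22. In the LN pair they were NDUFV1, a complex I subunit, with 0.61, and ALAS1, which starts heme synthesis, with -0.46. Of 17 textbook targets of PGC-1α with the estrogen-related receptors, 10 were higher in 2B-OlapR and 11 in LN-OlapR, with medians of 0.09 and 0.15. VEGFA, an angiogenic factor gene, was the only one past 2-fold in the 2B pair. It was at 63.0 normalized CPM in LNCaP against 99.3 in LN-OlapR and 174.4 in C4-2B against 83.9 in 2B-OlapR, so it was highest in C4-2B, as PPARGC1A was. CAT, the catalase gene, was lowest in the LN pair with -0.45.

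**Figure D4:**
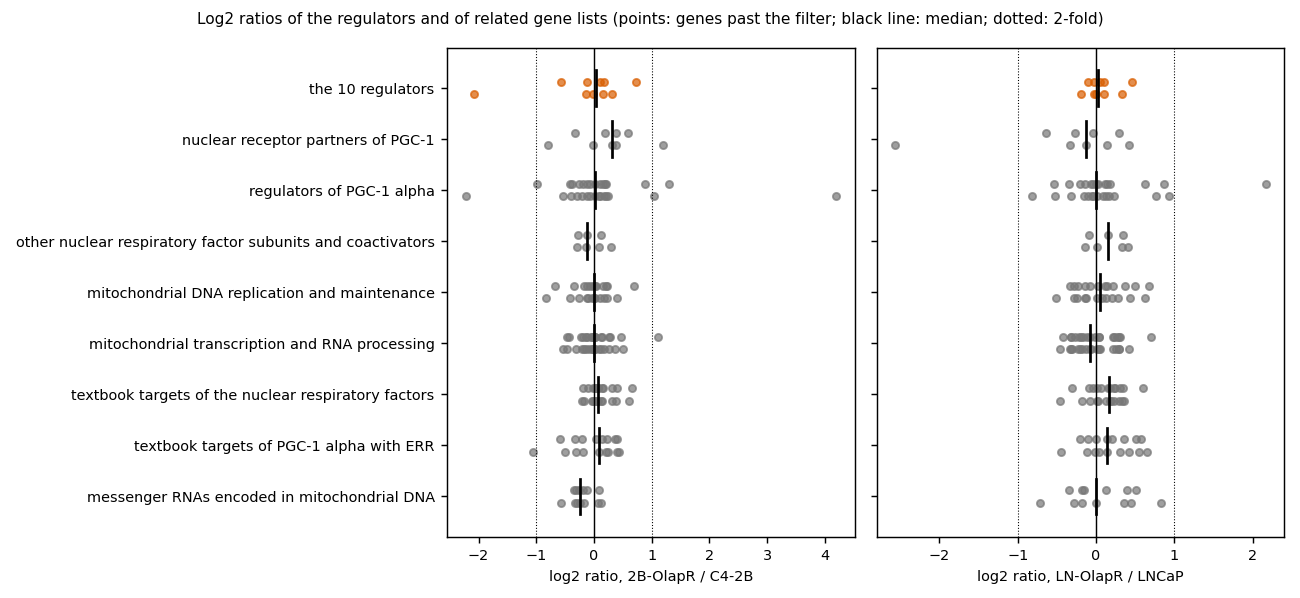
Log2 ratio (horizontal axes) of every gene past the filter (points) in the group of 10 regulators and in 8 related gene lists (rows), for 2B-OlapR against C4-2B on the left and LN-OlapR against LNCaP on the right, with the median of each list as a black line and dotted lines at 2-fold. The medians lie close to 0, from -0.24 for the messenger RNAs encoded in mitochondrial DNA to 0.31 for the nuclear receptor partners in the 2B pair, and PPARGC1A is the lowest point of its row at -2.08.

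Messenger RNAs encoded in mitochondrial DNA are the products that POLRMT, TFAM and TFB2M make. Those read from the strand with 12 of the 13 genes summed to 64365 normalized CPM in LNCaP against 67391 in LN-OlapR and 44024 in C4-2B against 37662 in 2B-OlapR. MT-ND6, the one gene read from the other strand, was at 798 normalized CPM in LNCaP against 1140 in LN-OlapR and 614 in C4-2B against 545 in 2B-OlapR. Its share of all mitochondrial messenger counts was 1.23% (1.21 to 1.24) in LNCaP, 1.66% (1.64 to 1.68) in LN-OlapR, 1.38% (1.35 to 1.40) in C4-2B against 1.43% (1.40 to 1.45) in 2B-OlapR. As with TFAM, both sums were lower in the C4-2B-background lines than in the LNCaP-background lines. POLRMT went the other way, at 71.9 and 71.7 normalized CPM in the LNCaP background and 90.0 and 102.0 in the other. TFB2M did not split by background, as its highest level was 40.3 for LN-OlapR and its lowest 29.4 for LNCaP. A link of these RNAs with TFAM, POLRMT or TFB2M was not tested. All 13 genes were lower in C4-2B than in LNCaP, by a median log2 ratio of -0.53, where 48.6% of all genes were higher. In the 2B pair 10 were lower and 3 higher, where 50.0% of all genes were higher. In the LN pair 6 were lower and 7 higher, where 49.6% were higher. The 12 genes read from the same strand are not taken as separate observations. Within the LN pair, in which the TFAM ratio was -0.03, single genes lay between -0.71, for MT-CO3, and 0.84, for MT-ND1. In the 2B pair MT-ATP8 was lowest with -0.58 and MT-ND3 highest with 0.12. Reads of nuclear copies of mitochondrial DNA can be part of these counts.

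Genes with the pattern most like that of PPARGC1A over the 4 libraries were sought among 14133 genes. The measure was the Euclidean distance between log2 values of normalized CPM plus 0.5, centred on the mean of each gene. Adding 0.5 narrows the differences of genes at low levels, PPARGC1A among them, more than those of genes at higher levels. The nearest were LOXL1 at a distance of 0.09, PFKFB4 at 0.12, PRAG1 at 0.14, CDH24 at 0.14 and RILPL2 at 0.15. LOXL1, which encodes a collagen cross-linking enzyme, was at 2.98 normalized CPM in LNCaP against 3.13 in LN-OlapR and 7.13 in C4-2B against 2.17 in 2B-OlapR. PFKFB4, a regulator of glycolysis, was at 18.7, 18.1, 43.6 and 13.1 in the same order. For PPARGC1B the nearest were INKA2 at 0.02, NUAK2 at 0.02, CABIN1 at 0.03, AMBRA1 at 0.04 and the pseudogene EIF4A1P2 at 0.04. With 4 libraries such a likeness is a description only.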

How the data were processed

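RNA was sequenced from 4 cell lines with 1 library each. From stranded mRNA libraries, the authors deposited estimated counts per gene, not scaled between libraries, of which 46.2% are not whole numbers. The submitters' processing notes name STAR, Partek and the builds GRCh38 and hg38, without roles or versions. The annotation and the strand setting of the counting are not given in the sources used here. Each listed gene sums to at least 10.0 over the libraries.

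Counts were rounded and scaled with TMM factors of edgeR 4.0.16 in R 4.3.3, which ranged from 0.961 to 1.03. Ratios were computed in Python 3.11.15 with a pseudocount of 0.5 counts per library, and a gene was analyzed where both libraries of a comparison averaged 1 normalized CPM or more. Where a library had 1 to 3 counts of a gene, the level and any ratio were given with their counting interval. The planned comparison foresaw counts or estimated counts and no test. Where a symbol was listed more than once the first entry was used.

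GENCODE 29 on GRCh38 gave gene positions, overlapping genes and the length of the longest coding transcript. It was not necessarily the annotation behind the counts. Promoter windows came from RefSeq.

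Besides the 10 genes, the text names the highest and lowest gene of each list in either resistant pair, genes at least 2-fold apart in either pair, ESRRA, ESRRG, GABPB2, TEFM and POLG, and the 5 nearest patterns of PPARGC1A and PPARGC1B. A gene under this rule is not reported here. The markers of prostate and other cell types, KLK3, COL1A1, VWF and CD68 among them, come from a separate list. MT-ND6, GABPAP, POLRMTP1 and the overlapping genes are not covered by it and were picked once the data had been seen. The 10 genes and the lists were chosen with earlier results of these data known. Alternatives were scaling by total counts, DESeq2 1.42.0 size factors or upper quartile factors, a pseudocount of 2, no filter or a mean of 10 normalized CPM, and unrounded counts. The calculation was tested on simulated data.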

Additional observations from a re-analysis of the deposited data

Results flagged for a closer look

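Of the 44 genes named by rule, the nearest patterns aside, 12 had log2 ratios of opposite sign in the 2B pair and the LN pair, each with a counting interval that left out 0. None of the 10 regulators of mitochondrial biogenesis was among them, a count of 0. Over all 14602 genes analyzed in both pairs the share was 16.3%, and most of the other named genes were picked as the extremes of a list in 1 pair, so the count of 12 is no result about them. The difference between the pairs was not tested, as there is 1 library per line. It is given here as the log2 ratio of the 2B pair minus that of the LN pair. The widest were PRKAA2, a catalytic subunit of AMP-activated kinase, at -4.39 and PPARG at 3.76. Their counts per library ran from 87 to 969 for PRKAA2 and from 31 to 214 for PPARG. VEGFA followed with -1.71, SLC25A36 with -1.27 and THRB with -0.95. CAT, the catalase gene, was at 0.69 and POLG, the mitochondrial DNA polymerase gene, at 0.40. MYC and its partner MAX were at -0.53 and -0.44, ATP5F1B at -0.39, MT-ND3 at 0.27 and NFE2L1 at 0.22.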

How the results depend on the processing

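With 1 library per line no replicate could be left out, and a fit over both backgrounds together was not run. Scaling by total counts moved the median log2 ratio of the 10 regulators in the 2B pair from 0.04 to -0.00462, and that of the LN pair from 0.02 to -0.0643, while the median of all genes became -0.04 and -0.09. It also moved PPRC1 to 0.02 and TFAM to -0.11 in the LN pair, past their counting intervals. When a mean of 10 normalized CPM was required, PPARGC1A and TFB1M no longer entered the 2B pair and C4-2B against LNCaP, which left 8 regulators, and the number at least 2-fold apart became 0 and 1. The other 59 alternatives for medians and counts and 209 for single genes stayed within counting error or 1.5 times the count. PPARGC1A ranged from -2.12 to -1.98 in the 2B pair, TFAM from -0.62 to -0.55 there and TFB1M from 0.69 to 0.76. Adding the counts of GABPAP to GABPA, an alternative chosen after the data were seen, moved GABPA in the 2B pair from -0.13 to -0.22. The depth limits PPARGC1A most, which had 15 to 64 counts.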
